A study of Mus musculus with 6 samples.

Results

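The 10 genes described here make up most of the mouse insulin-like growth factor (IGF) system: the ligands Igf1 and Igf2, the receptors Igf1r and Igf2r, and the binding proteins Igfbp2 to Igfbp7. They were chosen by gene name and with the counts and FPKM of these same 6 libraries in view, so their differences between groups are a description. All 10 were found among the 54532 gene identifiers of the deposited tables, and all 10 were among the 17042 genes with enough reads to be tested. Cell-treated libraries, 3 in number, came from the cortex of 5XFAD mice that had received cell therapy, which the series title names as transplanted human GABAergic interneurons made from induced pluripotent stem cells. Control libraries, also 3, came from the cortex of 5XFAD mice with the treatment label NC. All 6 mice thus carried the 5XFAD transgenes, human genes with familial Alzheimer's disease mutations expressed in neurons under Thy1 promoter elements. The labels give no age or sex and do not say whether control mice had a sham graft, and all libraries carry 1 shared batch label. The series' design text swaps the words control and experimental relative to the sample titles, and the titles were followed. The control columns of the tables carry the letters AD, which the titles lack. They were assigned by elimination, and every direction below depends on this.

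In the brain, IGF ligands act through Igf1r, a receptor tyrosine kinase that signals to PI3 kinase and Akt and promotes growth, survival and myelination. Igf2r, the cation-independent mannose 6-phosphate receptor, takes up Igf2 for degradation and carries lysosomal enzymes. The binding proteins hold the ligands outside the cell, prolong their life and limit or deliver them to the receptors, and proteases such as Pappa release the ligands by cutting the binding proteins.

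The promoters of 4 binding protein genes are shown, chosen with their values in view. Igfbp3 and Igfbp7 reached their highest levels in the same library, cell-treated library 3. Igfbp2 and Igfbp5, which lie 5457 bases apart on chromosome 1 with no gene between them, had opposite extremes in that library. Igfbp2 was there only 1.16-fold above the next library, and cell-treated library 3 held the highest value of 28.7% of all genes tested. Each sequence runs 5′ to 3′ on the gene's strand, from 250 bases before to 50 after the start site, in RefSeq's GRCm38.p6 assembly. Capitals mark the TATA-box pattern TATANA, the GC box GGGCGG and the AP-1 pattern TGANTCA, on either strand.
Igfbp3: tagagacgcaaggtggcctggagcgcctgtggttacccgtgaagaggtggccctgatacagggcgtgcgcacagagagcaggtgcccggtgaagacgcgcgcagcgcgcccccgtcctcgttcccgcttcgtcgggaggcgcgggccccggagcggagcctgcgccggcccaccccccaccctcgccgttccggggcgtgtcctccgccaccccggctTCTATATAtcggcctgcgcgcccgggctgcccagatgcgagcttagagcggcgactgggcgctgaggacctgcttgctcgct
Igfbp7: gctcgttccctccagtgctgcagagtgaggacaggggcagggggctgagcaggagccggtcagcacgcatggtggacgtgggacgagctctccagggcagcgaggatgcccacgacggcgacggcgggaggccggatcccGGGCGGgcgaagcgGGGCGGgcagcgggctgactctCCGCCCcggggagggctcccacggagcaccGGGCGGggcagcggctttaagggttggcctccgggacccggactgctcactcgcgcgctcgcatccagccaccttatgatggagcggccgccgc
Igfbp2: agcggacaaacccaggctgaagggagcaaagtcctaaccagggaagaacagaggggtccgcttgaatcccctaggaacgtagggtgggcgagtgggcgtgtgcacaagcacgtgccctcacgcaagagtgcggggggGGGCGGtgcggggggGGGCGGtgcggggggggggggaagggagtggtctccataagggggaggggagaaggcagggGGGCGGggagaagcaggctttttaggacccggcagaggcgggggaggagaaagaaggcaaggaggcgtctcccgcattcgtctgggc
Igfbp5: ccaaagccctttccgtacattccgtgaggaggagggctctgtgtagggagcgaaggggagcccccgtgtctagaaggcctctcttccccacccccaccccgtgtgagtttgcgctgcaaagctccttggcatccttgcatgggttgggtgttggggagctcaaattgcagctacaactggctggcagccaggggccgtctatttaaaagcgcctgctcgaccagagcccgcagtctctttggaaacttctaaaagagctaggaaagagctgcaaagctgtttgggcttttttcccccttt

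The Igfbp3 window (chr11:7213874-7214173, minus strand) held 2 overlapping matches to TATANA and none to the other patterns. The Igfbp7 window (chr5:77407996-77408295, minus strand) held 4 matches to GGGCGG, and the Igfbp2 window (chr1:72824230-72824529, plus strand, 1 of 2 RefSeq entries) held 3. The Igfbp5 window (chr1:72874816-72875115, minus strand) held no match. The deposited tables place the genes at chr10:87858265-87937042 (Igf1), chr7:142650766-142666816 (Igf2), chr7:67952827-68233668 (Igf1r), chr17:12682406-12769664 (Igf2r), chr1:72824503-72852474 (Igfbp2), chr11:7206086-7213923 (Igfbp3), chr11:99041244-99054392 (Igfbp4), chr1:72857932-72874884 (Igfbp5), chr15:102144362-102149511 (Igfbp6) and chr5:77349240-77408041 (Igfbp7), coordinates that equal those of GENCODE M21 (GRCm38).

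Of all 32851 promoter windows, 24.7% held TATANA, 35.7% held GGGCGG and 7.81% held TGANTCA. Igfbp3 and Igfbp7 thus shared none of the 3 patterns in these windows.

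No member passed edgeR's quasi-likelihood test of cell-treated against control libraries, where each had a Benjamini-Hochberg adjusted p of 0.999 over all genes. No other gene passed it either: 0% were called higher and 0% lower. Without adjustment, 0 of the 10 members and 340 of all genes (2%) had p under 0.05, with 0.939% of all genes higher and 1.06% lower. The groups overlapped for all 10 members, while over all genes 8.6% had groups that did not overlap. DESeq2 called 11 genes (0.0647%), none of them a member, and gave Igfbp3 no p-value, as for 33 genes set aside as count outliers. By sign, 6 members were on the higher side in cell-treated libraries and 4 on the lower side, against 50.2% of all genes on the higher side, and the median log2 fold change was 0.046 over the members and 0.0013 over all genes. Without cell-treated library 1 the members split into 3 higher and 7 lower.

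Total counts ranged from 14880969 to 16696463 in cell-treated libraries and from 14221519 to 15607280 in control libraries. Cell-treated library 3 stood apart: its mean Pearson correlation with the other libraries was 0.936, and that of the rest was 0.963 to 0.968 (across genes, so the points are not replicates). It held the highest value of 28.7% and the lowest value of 32.6% of all genes tested. Among the members it held the highest value of 3 and the lowest of 4. The mitochondrial share of reads was 1.95% in control library 3 and 4.49% to 8.78% in the other 5. Markers of cortical excitatory neurons were present throughout, with 9 of 9 tested and summed levels of 1330 to 1793 CPM (counts scaled to library size with TMM factors) in cell-treated and 1261 to 1795 CPM in control libraries. The labels give the cell type as neural cell, while markers of vessels, microglia and blood were also detected. Markers of other regions were present too: olfactory bulb markers summed to 587 CPM in cell-treated library 1 and to 51.0 to 116 CPM elsewhere, and striatal markers summed to 1915 CPM in control library 3 and to 350 to 724 CPM elsewhere. The striatal markers also differed by group: 9 of 9 had lower values in cell-treated libraries, with a median log2 fold change of -1.76. Of the 9, 7 had an unadjusted p under 0.05 in edgeR, against 2% of all genes, and none passed after adjustment. For 5 of 9 the groups did not overlap, lower in cell-treated libraries, against 4.3% of all genes in that direction. The part of the striatal markers in the members' values was not tested. GABAergic interneuron markers, counted on mouse genes, summed to 893 to 1597 CPM in cell-treated and to 645 to 1490 CPM in control libraries. The highest sum of each group was in cell-treated library 1 and control library 3. These libraries also held the most olfactory bulb and the most striatal markers, in that order. The part of those regions in the interneuron sums was not tested.

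**Figure D1:**
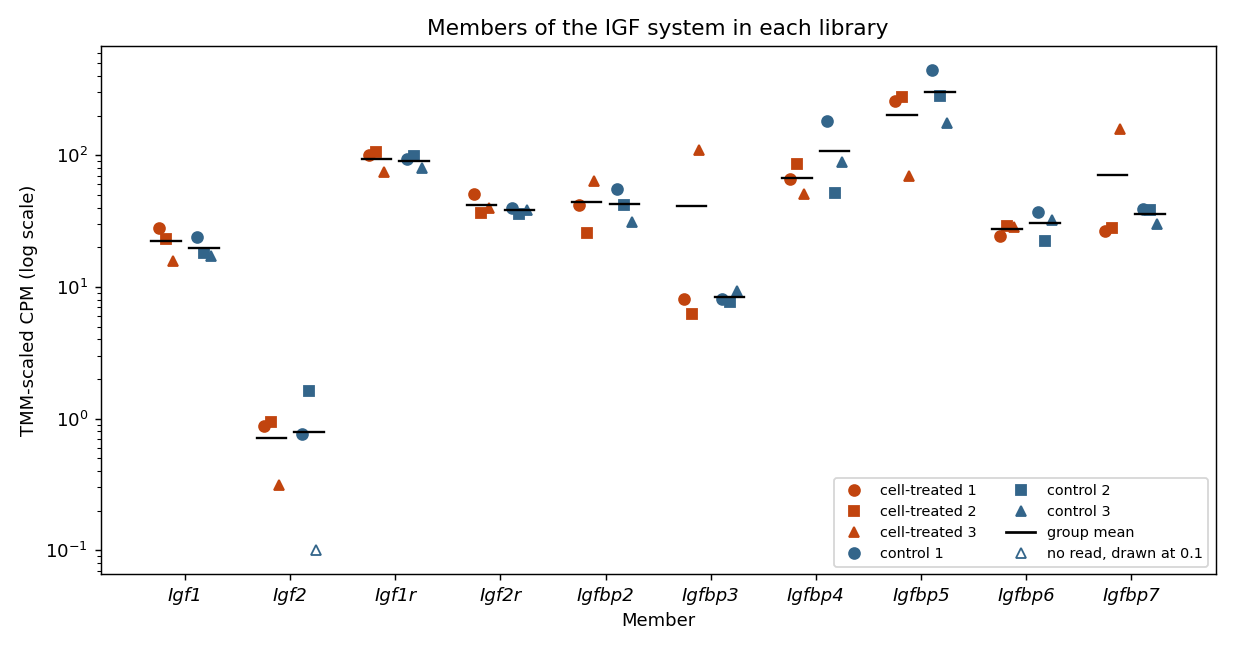
TMM-scaled CPM of each member on a log axis, with a point for each library (cell-treated in orange, left; control in blue, right) and a line at each group mean. Igfbp3 and Igfbp7 in cell-treated library 3, at 109 and 158 CPM, lie far above the other libraries, and Igf2 had no read in control library 3.

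Igf1, the ligand that microglia and some neurons make in the adult brain, was at 28.04, 23.2 and 15.9 CPM in cell-treated libraries 1, 2 and 3, and at 23.7, 18.02 and 17.1 CPM in control libraries 1, 2 and 3. Cell-treated libraries thus held both the highest and the lowest value, and the groups overlapped. The log2 fold change was 0.19 ± 0.26 (SE), and -0.0073 without cell-treated library 1. The library with the highest Igf1 level also held the highest levels of 6 of the 7 olfactory bulb markers tested, and their part in this value was not tested. Microglia markers in sum ran the other way between cell-treated libraries, at 708, 932 and 1437 CPM, beside 1044, 1047 and 857 CPM in control libraries. Of the 9 markers, 6 were highest in cell-treated library 3, where Igf1 was lowest. Cx3cr1 and Siglech were lowest there, as Igf1 was, at 78.0 and 20.9 CPM. Plaque-associated microglia genes were split there, with 4 of 13 highest and 4 lowest. The part of microglia in the Igf1 values was not tested. In bulk cortex, fewer cells of a type and less RNA per cell cannot be told apart.

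Igf2, an imprinted ligand made in the brain mainly by the meninges, choroid plexus and vessels, was close to the detection limit. It had 14, 14 and 5 reads in cell-treated libraries 1, 2 and 3, and 11, 23 and 0 reads in control libraries 1, 2 and 3. A count of 0 allows up to 3 reads, or 0.192 CPM, in control library 3, and this limit covers counting error only. The controls spanned the whole range, with the highest and the lowest value of the 6. The log2 fold change of -0.14 ± 1.0099 (SE) ran from -0.73 without control library 3 to 0.91 without control library 2, and was 0.22 without cell-treated library 3. All 13 meningeal fibroblast markers were tested and none was at 0 in any library. Their sum was 188, 129 and 212 CPM in cell-treated and 221, 278 and 109 CPM in control libraries, with the highest and the lowest sum in the same libraries as Igf2. Pdgfra was the largest term of this sum in every library. It was at 67.4, 60.7 and 94.5 CPM in cell-treated and at 69.6, 102.5 and 61.1 CPM in control libraries, lowest in cell-treated library 2. Of the 13, 8 were highest in control library 2 and 6 lowest in control library 3. Their part in the Igf2 values was not tested.

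Choroid plexus markers were sparse. Of 12 markers, 5 were too low to be tested, and Otx2 was at 0 in cell-treated library 3, Tmem72 in cell-treated library 2 and Sostdc1 in control library 1. Transthyretin (Ttr), the most abundant choroid plexus transcript, was at 2.95, 6.55 and 2.11 CPM in cell-treated and at 4.83, 11.3 and 0.831 CPM in control libraries. Its highest and lowest libraries were those of Igf2, but of the 7 markers tested 3 were highest in control library 2 and 2 lowest in control library 3. Clic6 was highest in control library 3, at 9.72 CPM, where Igf2 had no read, and Kl was highest in cell-treated library 3. The summed level of the 7 tested, most of it from Enpp2, which oligodendrocytes also express, was 259, 311 and 128 CPM in cell-treated and 215, 202 and 237 CPM in control libraries. The Igf2 gene shares bases with the antisense gene Igf2os, which had 0 to 3 reads in cell-treated and 0 to 5 in control libraries. On its own strand it shares 16048 bases, nearly its whole length, with the protein-coding gene Gm49394, which had 0 reads in every library, and it also holds the microRNA gene Mir483, with 1 read in 1 control library. How reads that fall in both genes were counted is not stated in the labels, so the Igf2 counts are uncertain. Of its neighbours, the imprinted non-coding RNA H19 had 1, 0 and 17 reads in cell-treated and 0, 0 and 1 in control libraries, and the insulin gene Ins2 had none in any library.

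The receptors varied least of the system. Igf1r was at 99.7, 105 and 75.0 CPM in cell-treated libraries 1, 2 and 3, and at 93.0, 98.2 and 79.6 CPM in control libraries 1, 2 and 3. Its highest level was 1.40 times its lowest, and library 3 was the lowest of each group. This gave a log2 fold change of 0.047 ± 0.19 (SE), with values from -0.051 without cell-treated library 2 to 0.18 without cell-treated library 3. Igf2r was at 50.5, 36.2 and 39.6 CPM in cell-treated and at 39.8, 36.1 and 38.4 CPM in control libraries. Cell-treated library 1 was the highest and the other 5 lay within a narrow band. The log2 fold change was 0.14 ± 0.18 (SE), and -0.0080 without cell-treated library 1. Airn, the imprinted antisense RNA that overlaps Igf2r, had its highest count in the same library: 47, 9 and 30 reads in cell-treated and 26, 19 and 17 in control libraries. As no strand-marking kit is named, reads of the shared stretch cannot be told apart by strand.

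Igfbp3, the main IGF carrier of serum, had the widest range of the 9 members with reads in every library, its highest level 17.6 times its lowest. It was at 8.03, 6.21 and 109 CPM in cell-treated libraries 1, 2 and 3, and at 8.08, 7.71 and 9.33 CPM in control libraries 1, 2 and 3. Cell-treated library 3 was 11.7-fold above the next library, while the other 2 cell-treated libraries lay below the mean of the controls, 8.37 ± 0.85 CPM (SD, n = 3). The log2 fold change of 2.29 ± 1.013 (SE) therefore came from 1 library, and it was -0.24 without cell-treated library 3. Igfbp1, which lies 3539 bases from Igfbp3 on chromosome 11, was too low to be tested, with 1, 0 and 3 reads in cell-treated and 2, 0 and 0 in control libraries.

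Igfbp7, a low-affinity IGF binding protein abundant in brain endothelium, was at 26.8, 27.8 and 158 CPM in cell-treated libraries 1, 2 and 3, and at 38.9, 38.6 and 29.9 CPM in control libraries 1, 2 and 3. Cell-treated library 3 was 4.05-fold above the next library, and the other 2 cell-treated libraries were the lowest of all 6. The resulting log2 fold change was 0.98 ± 0.65 (SE), and -0.39 without cell-treated library 3. Endothelial markers were all detected, with 9 of 9 tested. Their sum was 449, 498 and 794 CPM in cell-treated and 534, 619 and 376 CPM in control libraries, and 5 of 9 were highest in cell-treated library 3. The glucose transporter gene Slc2a1, at 356 CPM in cell-treated library 3 and 76.1 to 124 CPM elsewhere, made up much of that library's sum. Without it the other 8 summed to 372, 418 and 438 CPM in cell-treated and 418, 494 and 288 CPM in control libraries, so that control library 2 was highest, and Flt1 was lowest in cell-treated library 3. The part of endothelial cells in the Igfbp7 level was not tested. Mural cell markers did not follow, at 360, 382 and 302 CPM in cell-treated and 352, 538 and 262 CPM in control libraries, with 2 of the 8 tested highest in cell-treated library 3. Igfbp7 shares 85 bases with Polr2b on the other strand, an RNA polymerase gene with 1202, 891 and 1285 reads in cell-treated and 746, 739 and 977 in control libraries.

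**Figure D2:**
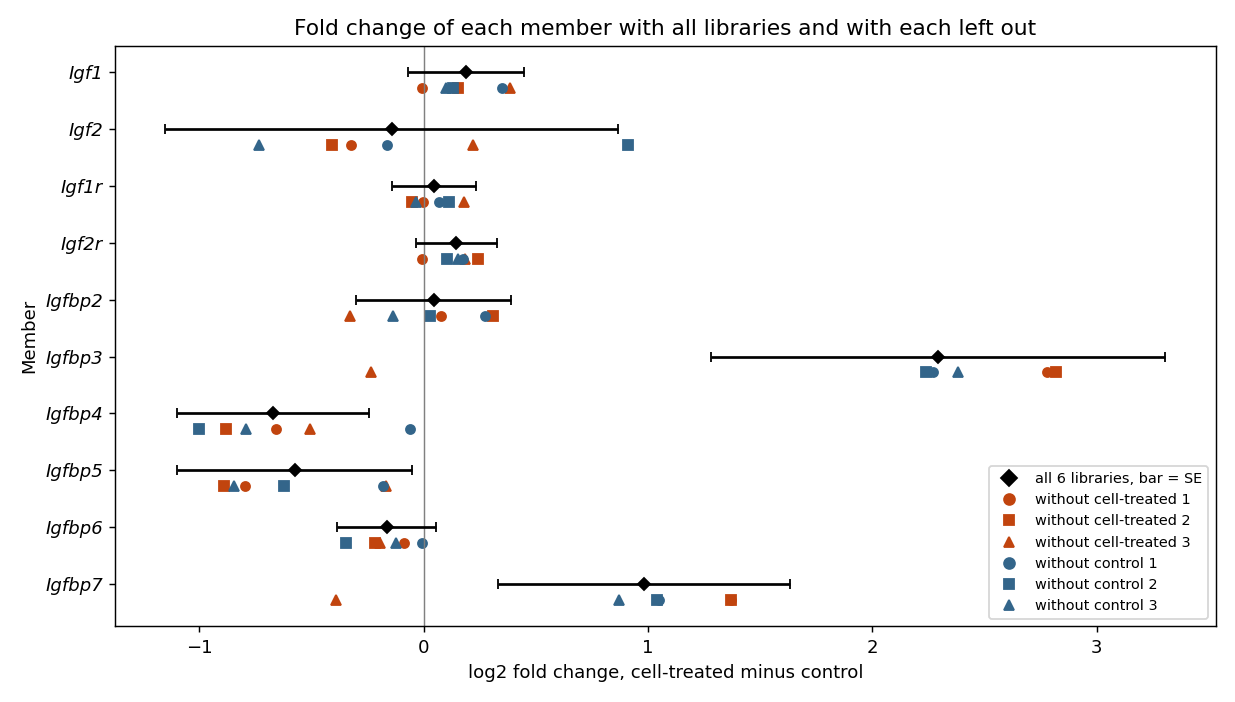
Log2 fold change of each member, cell-treated minus control, with all libraries (black diamonds, bars give the SE) and with each library left out in turn (coloured symbols). Igfbp3 and Igfbp7 pass below 0 without cell-treated library 3, at -0.24 and -0.39, and Igfbp4 comes close to 0 without control library 1, at -0.063.

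Igfbp5, a binding protein that also attaches to extracellular matrix, had its lowest value in the library where Igfbp3 and Igfbp7 were highest. It was at 259, 278 and 69.0 CPM in cell-treated libraries 1, 2 and 3, and at 445, 281 and 177 CPM in control libraries 1, 2 and 3. Cell-treated library 3 lay 2.56-fold below the next lowest, and control library 1 lay above all others. Its log2 fold change of -0.58 ± 0.53 (SE) shrank to -0.17 when cell-treated library 3 was left out, and to -0.18 when control library 1 was.

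Igfbp4, which restrains IGF action until Pappa cleaves it, was at 66.1, 85.2 and 51.1 CPM in cell-treated libraries 1, 2 and 3, and at 182, 52.0 and 88.8 CPM in control libraries 1, 2 and 3. Control library 1 was 2.05-fold above the next library and cell-treated library 3 was the lowest. Its log2 fold change of -0.67 ± 0.43 (SE) was -0.063 without control library 1, so nearly all of it came from that library. Reactive astrocyte genes, 8 of 8 tested, were highest in sum in the same library, at 1253, 2194 and 3090 CPM in cell-treated and 4198, 1958 and 1562 CPM in control libraries. This sum was mostly Gfap, and 6 of the 8 genes were highest not there but in cell-treated library 3, among them Vim, Cd44 and Timp1. Their part in the Igfbp4 level was not tested.

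Igfbp2, which the meninges, choroid plexus and astrocytes make, was at 41.8, 25.9 and 63.9 CPM in cell-treated libraries 1, 2 and 3, and at 55.1, 41.6 and 31.0 CPM in control libraries 1, 2 and 3. Cell-treated libraries held both the highest and the lowest value. Its log2 fold change was 0.044 ± 0.35 (SE), -0.33 without cell-treated library 3, -0.14 without control library 3 and 0.31 without cell-treated library 2. In cell-treated library 3 its neighbour Igfbp5 had the lowest level of the 6 libraries, while Igfbp2 had its highest. Igfbp6, which prefers Igf2 over Igf1 as a ligand, was at 24.4, 29.2 and 28.4 CPM in cell-treated and at 37.1, 22.5 and 32.4 CPM in control libraries. The controls enclosed the cell-treated values, and the log2 fold change was -0.16 ± 0.22 (SE). It was the binding protein of the narrowest range, with its highest level 1.65 times its lowest.

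Cell-treated library 3, the extreme library of Igfbp3, Igfbp5 and Igfbp7, also differed from the rest in glial markers, in both directions. Astrocyte markers, 7 of 7 tested, summed to 5264, 7062 and 1238 CPM in cell-treated and to 7711, 7742 and 4264 CPM in control libraries, and 6 of the 7 were lowest in cell-treated library 3. All 8 oligodendrocyte markers were lowest there, with sums of 4778, 7864 and 3003 CPM in cell-treated and 8544, 5927 and 5072 CPM in control libraries. Reactive astrocyte genes went the other way: 6 of 8 were highest in cell-treated library 3 and 0 lowest. Of the 9 microglia markers, 6 were highest and 2 lowest in cell-treated library 3. Plaque-associated microglia genes were split, with 4 of 13 highest and 4 lowest in that library. Hemoglobin genes and Alas2, 5 of 5, were highest there. Their sums were 105, 136 and 275 CPM in cell-treated and 49.4, 18.9 and 6.78 CPM in control libraries. All 5 also differed by group, with no overlap, higher in cell-treated libraries, against 4.3% of all genes in that direction. All 5 had an unadjusted p under 0.05 in edgeR, against 2% of all genes, and none passed after adjustment. The part of these cell types in the binding protein levels was not tested.

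**Figure D3:**
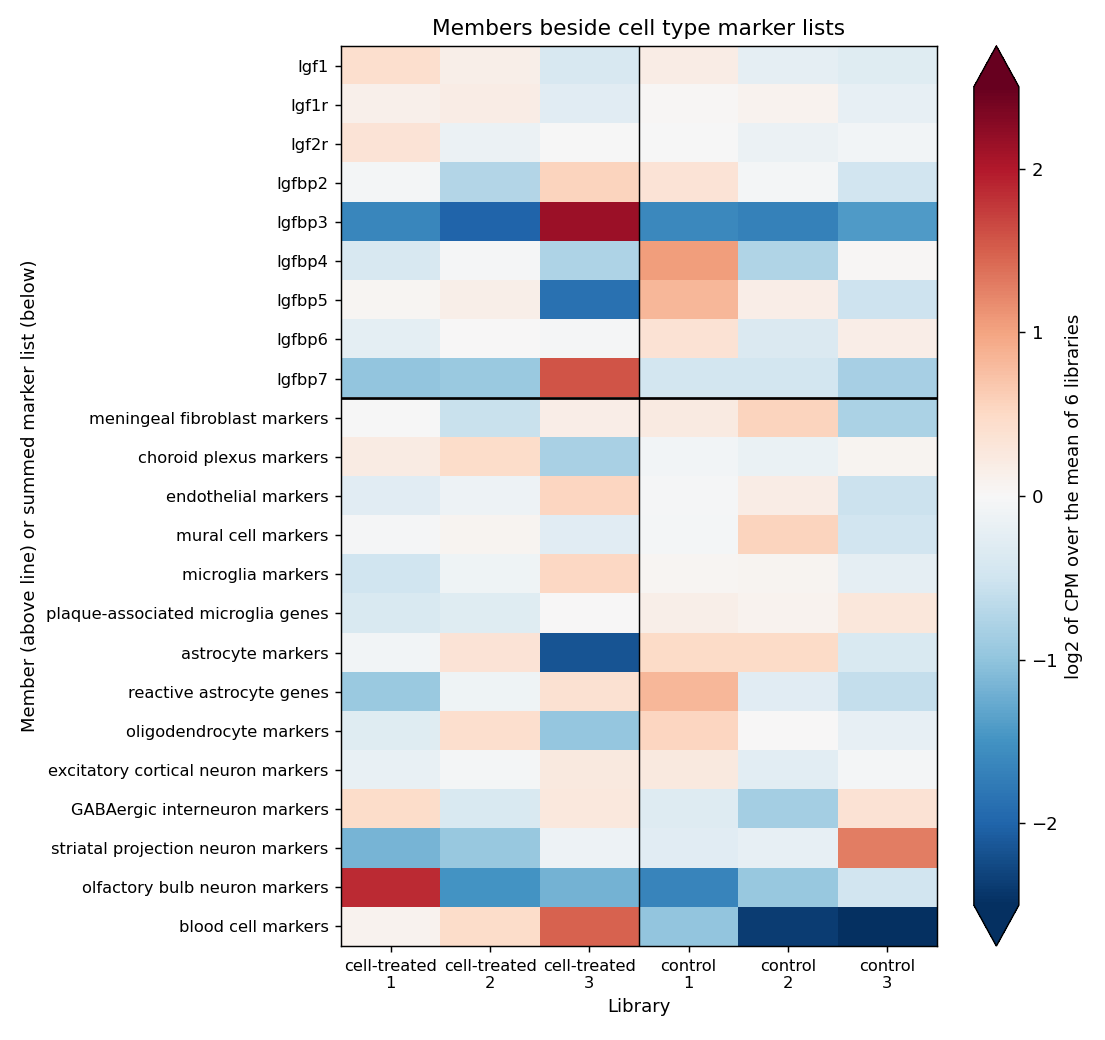
Log2 ratio of each library's CPM to the mean of the 6 libraries, for 9 members (above the line; Igf2 is left out for its count of 0) and for the summed marker lists (below), with colours capped at 2.5 in either direction. Cell-treated library 3 combines the highest Igfbp3 and Igfbp7 with the lowest Igfbp5 and the lowest sum of astrocyte markers, 1238 CPM.

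Levels were compared between genes on the deposited FPKM scale, which divides by gene length. Averaged over the 6 libraries, Igfbp7 came first at 44.2 ± 43.1 FPKM (SD, n = 6), followed by Igfbp5 at 41.6 ± 20.5 FPKM. Igfbp7 led Igfbp5 in 1 of 6 libraries, so its place rests on cell-treated library 3, at 132 FPKM. Igfbp6 at 26.0 ± 4.65 FPKM, Igfbp2 at 23.3 ± 7.82 FPKM and Igfbp4 at 19.7 ± 10.9 FPKM came next, and their ranges overlapped. Igfbp3 averaged 7.95 ± 13.4 FPKM, with a median of 2.55 FPKM, and lay above Igf1r in 1 of 6 libraries. Igf1r at 5.45 ± 0.70 FPKM lay above Igf2r at 4.30 ± 0.57 FPKM in 6 of 6 libraries, although their ranges overlapped. Igf1 at 2.11 ± 0.47 FPKM and Igf2 at 0.13 ± 0.097 FPKM came last, and neither range overlapped its neighbour above. Igfbp3 lay above Igf1 per length in the 3 controls and cell-treated library 3, and below it in cell-treated libraries 1 and 2.

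The 6 binding proteins together reached 127, 131 and 251 FPKM in cell-treated libraries 1, 2 and 3, and 211, 135 and 122 FPKM in control libraries 1, 2 and 3. The highest sum in each group came from a different set of genes. In cell-treated library 3, Igfbp7 made up 52.5% and Igfbp3 14% of the sum, and Igfbp5 4.62%. In control library 1, Igfbp5 made up 34.7% and Igfbp4 19.3%, and Igfbp3 1.21%. As in control library 1, Igfbp5 led in the other 4 libraries. It made up 33.8% and 35.3% in cell-treated libraries 1 and 2, and 34.5% and 23.9% in control libraries 2 and 3. In control library 3, Igfbp6 was close behind at 23.7%. Igfbp3 took 1.52% to 2.42% in these 4 libraries.

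**Figure D4:**
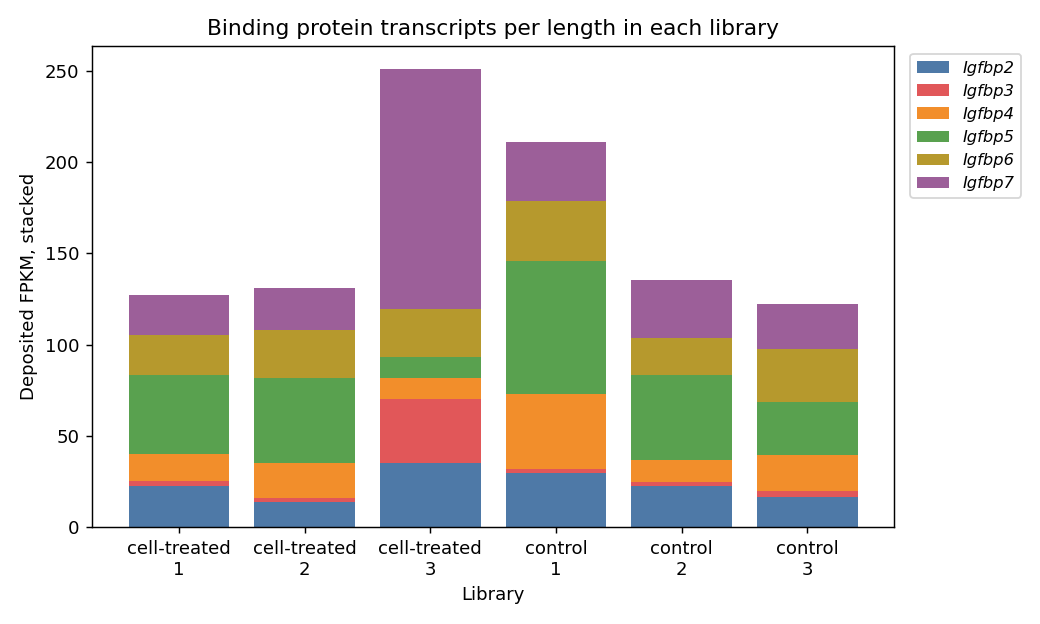
Deposited FPKM of the 6 binding proteins, stacked, for each library. Cell-treated library 3 reaches 251 FPKM, of which Igfbp7 is 52.5%, and control library 1 reaches 211 FPKM, of which Igfbp5 is 34.7%.

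Among the other 41 genes of the pathway, 35 were tested and none was called in either direction by edgeR over all genes (adjusted p of 0.999 each). By sign, 23 were higher and 12 lower, and their median log2 fold change was 0.088, against 0.0013 over all genes.

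Of the 18 genes of PI3 kinase, Akt, mTOR and FoxO, 12 had higher and 6 lower values by sign. For 2 of the 18 the groups did not overlap, higher in cell-treated libraries, against 4.3% of all genes in that direction. An unadjusted p under 0.05 in edgeR was found for 1 of the 18, against 2% of all genes. Pik3ca, a catalytic subunit of PI3 kinase, was at 91.3, 102 and 75.9 CPM in cell-treated and at 69.4, 65.1 and 80.9 CPM in control libraries. The groups overlapped through library 3 of each, and the log2 fold change was 0.32 ± 0.18 (SE). Pik3cb, another catalytic subunit, was at 40.4, 33.0 and 41.9 CPM in cell-treated and at 27.4, 29.6 and 35.6 CPM in control libraries. Here too the groups overlapped, and the log2 fold change was 0.32 ± 0.19 (SE).

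Of the 8 receptor substrates and adaptors, 6 had higher and 2 lower values. Irs2, a docking protein of the insulin and IGF receptors, was at 53.6, 57.9 and 102 CPM in cell-treated and at 44.2, 55.5 and 54.7 CPM in control libraries. Cell-treated library 3 was again the highest, and the log2 fold change of 0.47 ± 0.27 (SE) was 0.11 without it. Sos1, a Ras activator, was at 69.4, 68.8 and 65.2 CPM in cell-treated and at 53.4, 55.7 and 61.4 CPM in control libraries. All 3 cell-treated values lay above all 3 control values, as for 4.3% of all genes in that direction, and the log2 fold change was 0.25 ± 0.15 (SE). Irs1 and the adaptor Grb2 had log2 fold changes of 0.43 and 0.33. With 1 library left out, Irs1 ran between 0.12 (cell-treated library 1 left out) and 0.88 (control library 1 left out), and Grb2 between 0.21 (cell-treated library 3 left out) and 0.50 (cell-treated library 2 left out). The insulin receptor Insr was at 64.5 to 76.1 CPM in cell-treated and at 65.4 to 72.4 CPM in control libraries, with a log2 fold change of 0.047 ± 0.15 (SE).

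Genes that cut or protect the binding proteins were low except Htra1, and of the 5 tested 3 were higher and 2 lower by sign. Pappa, the metalloprotease that cleaves Igfbp4, was at 2.32, 0.676 and 6.16 CPM in cell-treated and at 0.483, 0.841 and 0.959 CPM in control libraries. The groups overlapped through cell-treated library 2. Its log2 fold change of 1.99 ± 0.76 (SE), with an unadjusted p of 0.0312 and an adjusted p of 0.999 in edgeR, was 0.97 without cell-treated library 3. Htra1, a secreted serine protease that cleaves Igfbp5, was at 167, 211 and 150 CPM in cell-treated and at 318, 198 and 178 CPM in control libraries. Control library 1, the library with the most Igfbp4 and Igfbp5, also held the most Htra1, and the log2 fold change of -0.39 ± 0.26 (SE) was -0.094 without it. The stanniocalcins Stc1 and Stc2, which inhibit Pappa-type proteases, had log2 fold changes of 0.67 and -0.57, and that of Stc2 was 0.010 without control library 3. Leaving out single libraries moved Stc1 between 0.19 (control library 1 left out) and 1.14 (control library 2 left out).

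Of the remaining lists, Igfbpl1, a binding-protein-like gene of immature neurons, was at 4.64, 0.068 and 0.81 CPM in cell-treated and at 0.28, 0.77 and 1.41 CPM in control libraries. Its log2 fold change of 1.16 ± 1.12 (SE) was -0.88 without cell-treated library 1, where the olfactory bulb markers were highest, and their part was not tested. Igf2bp2 and Igf2bp3, which bind Igf2 mRNA, had log2 fold changes of -0.62 and -0.048, and that of Igf2bp3 was 0.29 without cell-treated library 3. Igfals, the acid-labile subunit that partners Igfbp3 in serum, was too low to be tested. It had 1, 3 and 24 reads in cell-treated and 0, 0 and 2 in control libraries, so its highest count was also in cell-treated library 3.

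**Figure D5:**
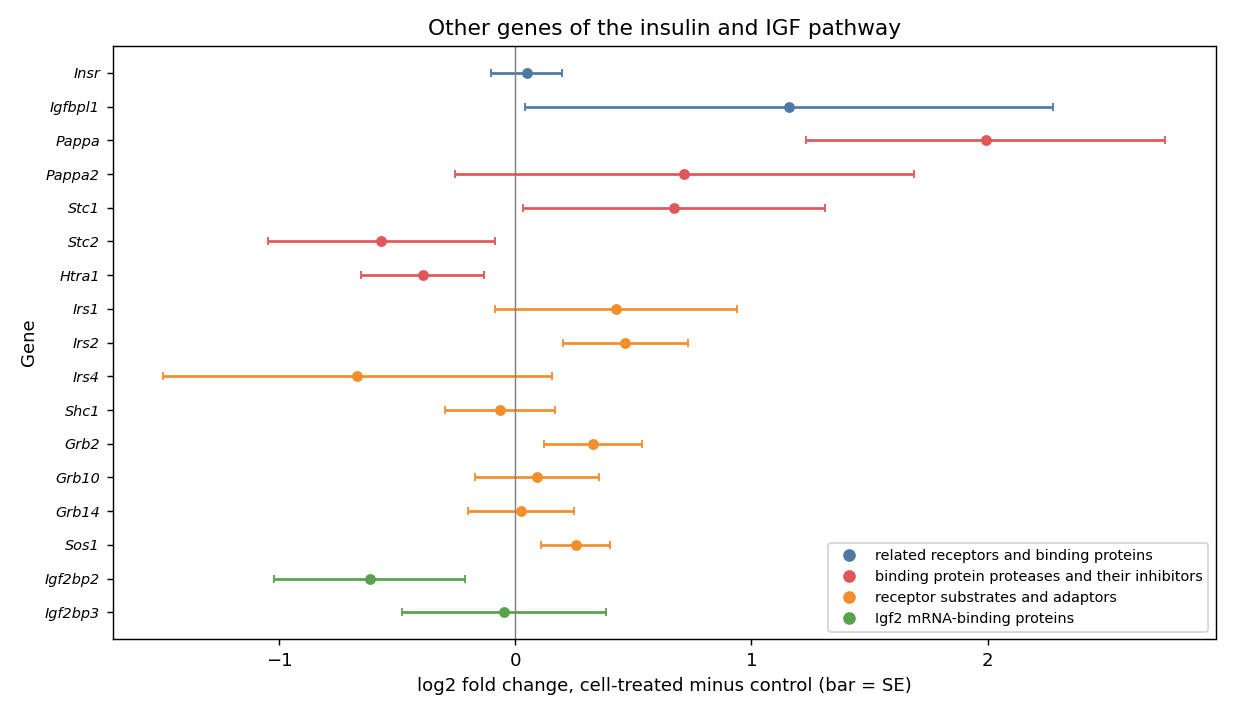
Log2 fold change, cell-treated minus control, of the genes tested in 4 pathway lists (receptors and binding proteins, proteases and inhibitors, receptor substrates and adaptors, Igf2 mRNA-binding proteins), coloured by list, with bars for the SE. Pappa reaches 1.99 and Igfbpl1 1.16 with wide errors, while Insr lies at 0.047.

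For the 3 members of the widest range in log2 CPM with a prior count of 2, which sets the value of Igf2 in its library of 0 reads, the genes most alike in pattern over the 6 libraries were found among 13209 genes of average log2 CPM of at least 1, by the root mean square difference of centred log2 CPM. Nearest to Igfbp3 were Tgfbi (0.364), Ctla2a (0.392), Prph (0.412), Irf7 (0.420) and Spp1 (0.429). Tgfbi, a secreted matrix protein, was at 5.58, 4.46 and 52.5 CPM in cell-treated and at 6.01, 7.78 and 4.60 CPM in control libraries. Its high value in cell-treated library 3 follows from its choice by likeness to Igfbp3. Nearest to Igfbp5 were Tfcp2l1 (0.081), Acot11 (0.126), Gli2 (0.137), Lgi4 (0.145) and Slc15a2 (0.156). Tfcp2l1, a transcription factor, was at 18.6, 20.7 and 4.23 CPM in cell-treated and at 30.9, 19.9 and 12.8 CPM in control libraries. Its highest and lowest libraries were those of Igfbp5, which likewise follows from the choice by likeness. Nearest to Igf2 were Ttr (0.408), Slc19a3 (0.441), F13a1 (0.444), mt-Nd5 (0.471) and Cped1 (0.473), all compared over the few reads of Igf2. The mitochondrial share of reads had its highest value, 8.78%, and its lowest, 1.95%, in the libraries where Igf2 had its own.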

How the data were processed

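Polyadenylated RNA of mouse cortex was sequenced, per the labels' protocols. The authors deposited whole-number read counts per gene and FPKM per gene. Tools named without settings, per the submitters' processing notes, were HISAT2 2.0.5, DESeq2 and featureCounts; no genome build is named there. Of 54409 identifiers shared with GENCODE M21 (GRCm38), 98.3% had the same coordinates, as had all 10 members. The deposited FPKM equalled counts per gene length and per library total, a total of 0.953 to 1.03 times the summed counts. A group FPKM table was not used.

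The main test of the deposited counts was that of edgeR 4.0.16 (R 4.3.3): filterByExpr (minimum count 10, total 15), TMM scaling and the robust quasi-likelihood test, Benjamini-Hochberg adjustment over all genes and a threshold of 0.05. SEs came from the F statistic. The design text calls the libraries biological replicates. DESeq2 1.42.0 and limma 3.58.1 (voom, and log2(FPKM + 1) and log2(FPKM + 0.1)), other scaling and filters, the replicate number as a block, and leaving out libraries were alternatives. The members and gene lists were chosen with earlier results of these data known. All members are named, and of each pathway list at most 4 genes of smallest p; genes most alike in pattern are the nearest 5 for each of the 3 members of widest range. The tables list mouse genes, and no separation of human graft reads is described. Slc2a1, Flt1, Cx3cr1, Siglech, Pdgfra, some choroid plexus markers, the overlapping genes and the untested pathway genes are named after their values were seen. Promoters are RefSeq's GRCm38.p6 windows. Figures were drawn with matplotlib 3.10.9. Some genes of the pathway lists are counted but not reported by name here.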

Additional observations from a re-analysis of the deposited data

How the results depend on the processing

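No gene was called with the 6 libraries in edgeR. DESeq2 called 7 genes higher and 4 lower, and edgeR without a low-count filter called 1 higher, none of them a member; the other alternatives run called 0. The count at an unadjusted p under 0.05 was 340, ran from 203 (without control library 2) to 796 (without cell-treated library 3) with single libraries left out, was 653 without cell-treated library 2, 669 without a low-count filter, 406 by DESeq2, and was 1530 without library 3 of both groups, a setting chosen after seeing the data. Members with higher values numbered 6 and ran from 3 to 7 with single libraries left out, and those with lower values numbered 4 and ran from 3 to 7. Without library 3 of both groups, 3 were higher and 7 lower with a median of -0.26, and the log2 fold changes were -0.51 for Igfbp2, -0.15 for Igfbp3, -0.51 for Igfbp7 and 0.12 for Igf2bp3, each of the opposite sign to the value with all libraries.

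Igfbp3 was 2.29 by edgeR, 2.32 by DESeq2 and 1.1 by limma voom. On log2(FPKM + 1) and log2(FPKM + 0.1) it was 0.995 and 1.08, and with the replicate block 1. Igfbp7 was 0.98 by edgeR, 1 by DESeq2, 0.47 by voom and 0.41 with the replicate block. On the same FPKM scales it was 0.47 and 0.48. Igfbpl1 fell from 1.16 by edgeR to 0.071 by voom. Igf2 turned to 0.997 by limma voom and 0.080 on log2(FPKM + 0.1), and Igfbp2 to -0.0070 by voom. The labels do not say whether the replicate numbers pair the mice. Deviations from the group means correlated at -0.277, 0.0815 and 0.0728 for numbers 1, 2 and 3. Not every library correlated best with its own number. These correlations cannot decide whether mice were paired, as each mean of 3 includes the library itself. With the replicate block, 0 genes were called, Igf2 was 0.28 and Igfbp2 -0.021, of opposite sign. The cause of these reversals was not tested.

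With single libraries left out, log2 fold changes ran from -0.0073 to 0.38 for Igf1, -0.73 to 0.91 for Igf2, -0.051 to 0.18 for Igf1r, -0.0080 to 0.24 for Igf2r, -0.33 to 0.31 for Igfbp2, -0.24 to 2.82 for Igfbp3 and -0.39 to 1.37 for Igfbp7. Igfbp4, Igfbp5 and Igfbp6 stayed below 0, from -1 to -0.063, -0.89 to -0.17 and -0.35 to -0.0067. They ran from -0.88 to 1.80 for Igfbpl1, -0.011 to 0.11 for Insr, -0.81 to 0.010 for Stc2 and -0.43 to 0.29 for Igf2bp3. Igf2 rests on 0 to 23 reads a library. With 3 libraries a group, missing the threshold is no evidence of equal levels.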
